A study of Mus musculus with 34 samples.

Results

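NaJa-D and NaJa-F are mouse colorectal cancer cell lines, and their untreated transcriptomes were compared across all 14107 genes of the count table. The comparison used 12 of the 34 libraries of the series, namely the 6 NaJa-F and the 6 NaJa-D libraries grown with the solvent DMSO alone, 3 per line on day 1 and 3 per line on day 5. Members were chosen by line and treatment in the library titles and by no measured value. Both lines carry the genotype given as VillinCreERT2::BrafV600E/+::Trp53R172H::APCdel, in which a Cre recombinase under the Villin promoter switches the alleles in intestinal epithelium. Both were grown out of the peritoneal lavage of recipient mice that had been transplanted with organoids of one male C57BL/6N donor, and each line stems from 1 recipient. A difference between the lines is therefore a difference between 2 cultures of common origin, and it cannot be told apart from chance variation among lines that other recipients might have given. Cells were kept in DMEM with 10% FBS, both time points were plated together, and DMSO was given at the start and renewed during the longer culture. The titles number the libraries within a group, but nothing states that they came from separate cultures, so p-values measure the spread between these libraries, which may be technical.

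Carcinoma cells can hold an epithelial state, with cells sealed by claudins, desmosomes and E-cadherin, or move towards a mesenchymal state, in which transcription factors of the ZEB, SNAI, TWIST and PRRX families repress epithelial genes and cells gain a motile cytoskeleton. Colon epithelium also carries a positional and lineage code, set by CDX2, hepatocyte nuclear factors, GATA factors and the posterior HOX genes. In the study the lines are placed along this axis, with NaJa-D at the epithelial end, NaJa-F in between and the third line, NaJa-G, at the mesenchymal end.

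The libraries held 46007050 to 61028464 counts in NaJa-D and 57259591 to 69275686 in NaJa-F. Mitochondrially encoded genes took 2.3% to 8.01% of the counts in NaJa-D and 1.78% to 3.8% in NaJa-F, and ribosomal protein genes took 2.77% to 3.25% and 3.54% to 4.03%. The part of these shares in the results below was not tested. One library, by its title the third replicate of NaJa-D with DMSO at day 1, reads NaJa-G in its cell line field. Across genes its log2 abundance had a median correlation of 0.985 with the other NaJa-D DMSO libraries and of 0.917 with those of NaJa-G, so it was kept under its title, and results that change without it are given with both values. Abundance is given in CPM, the usual unit of counts relative to the library total, after TMM scaling. This unit does not correct for gene length, so CPM are compared between libraries and not between genes. The line difference is the log2 fold change of NaJa-F over NaJa-D with both days weighted equally, and a gene was called where its p, adjusted by Benjamini-Hochberg across the whole table, lay below 0.01.

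At that threshold 8685 genes (61.6% of those tested) were called, and 8186 without the library whose cell line field reads NaJa-G. Most of the differences were small, since 4374 of the 8685 genes lay below 0.5 on the log2 scale, and the median SE was 0.06. Across the table the log2 fold change had a median of 0.02 and a median absolute value of 0.32. With a size of 1 or more on the log2 scale as a second condition, 1773 genes (12.6%) remained, of which 972 (6.89%) were higher and 801 (5.68%) lower in NaJa-F. At 3 or more on the log2 scale there were 224 called genes. The 6 libraries of one line lay entirely above the 6 of the other for 5611 genes (39.8%).

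The steepest contrasts were genes that were nearly absent from one line. Ptgs2, which encodes the inducible cyclooxygenase COX-2 of prostaglandin synthesis (chr1:150100031-150108227, GRCm38, plus strand), ranged from 385 to 583 CPM with a median of 484 in NaJa-F and from 0.0628 to 0.258 CPM with a median of 0.106 in NaJa-D. The NaJa-D libraries held 3 to 11 Ptgs2 counts each, against 23531 to 40689 in NaJa-F. The ratio of the summed counts, each taken relative to library totals after TMM scaling, was 3880, with an exact 95% interval of 2820 to 5520 that covers counting error only. The fitted log2 fold change was 11.89 ± 0.26 (SE), with adjusted p = 9.6e-25. No other called gene that averaged at least 2 log2 CPM and did not overlap between the lines had a larger one. In NaJa-G, Ptgs2 averaged 392 CPM at day 1 and 292 CPM at day 5, on the NaJa-F side. The antisense neighbour Ptgs2os followed it, at 4.87 to 7.29 CPM in NaJa-F and at most 0.0432 CPM in NaJa-D, but the use of strand in counting was not stated, so reads of the pair cannot be told apart.

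Flot2, a scaffold protein of membrane rafts (chr11:78037931-78060434, plus strand), showed a similar switch. Its level was 46.0 to 54.7 CPM with a median of 47.5 in NaJa-F and 0.213 to 0.517 CPM with a median of 0.299 in NaJa-D (log2 fold change 7.18 ± 0.27, adjusted p = 3.1e-19). Its partner Flot1 was expressed in both lines, at medians of 41.1 CPM in NaJa-D and 31.3 CPM in NaJa-F, a log2 fold change of -0.33 ± 0.05. In NaJa-G, Flot2 averaged 53.9 CPM at day 1.

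In the other direction, 3 genes stayed below 0.1 CPM in all 6 NaJa-F libraries and above 5 CPM in all 6 of NaJa-D. Hoxa11, a posterior homeobox gene (chr6:52242106-52245810, minus strand), had 20.8 to 25.9 CPM with a median of 22.5 in NaJa-D and at most 0.0343 CPM in NaJa-F, where 7 counts were found over all 6 libraries against 6836. The ratio of summed counts was 1270, with an exact interval of 615 to 3150. Cstf2t, an intronless relative of the RNA 3' end processing factor Cstf2 (chr19:31082837-31087069, plus strand), had 13.8 to 16.2 CPM in NaJa-D and at most 0.0742 CPM in NaJa-F, a ratio of 587 (319 to 1220). Cstf2 itself differed little, at medians of 90.7 and 105 CPM in NaJa-D and NaJa-F (log2 fold change 0.22 ± 0.03). Clec2f, annotated as a transcribed pseudogene of a lectin family on chromosome 6, had 32.1 to 46.6 CPM in NaJa-D and at most 0.084 CPM in NaJa-F. Reads of Cstf2t and Clec2f could be split with near copies by the counting, so their levels are less certain. NaJa-G lay between for Hoxa11, at 3.57 CPM on day 1, and for Clec2f, at 11.3 CPM, and was low for Cstf2t, at 0.514 CPM.

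**Figure D1:**
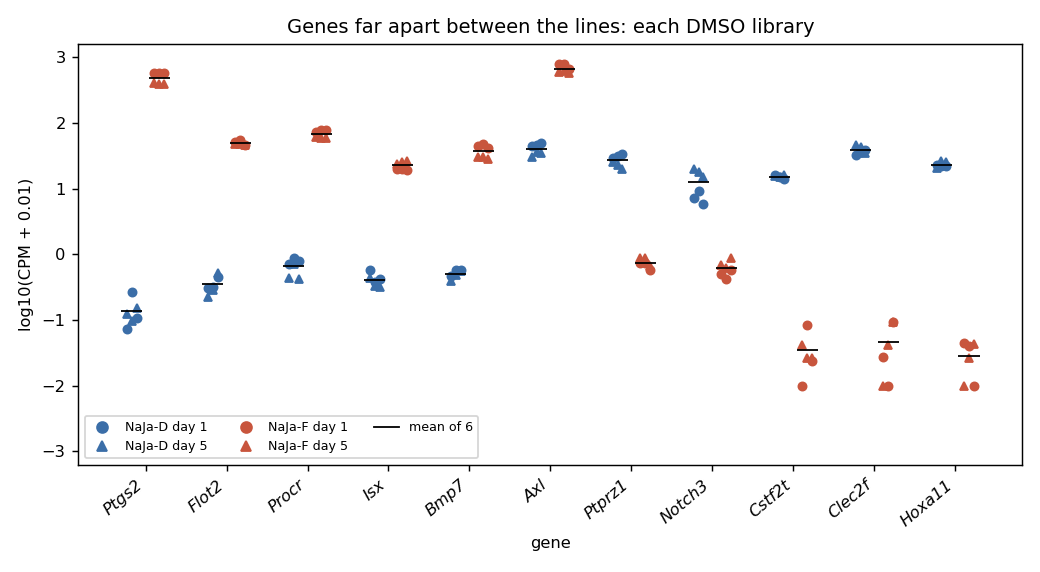
Abundance of 11 genes in each DMSO library, as log10 of CPM plus 0.01 on the y axis, with NaJa-D in blue, NaJa-F in red, circles for day 1, triangles for day 5 and a bar at the mean CPM of the 6 libraries of a line. Ptgs2 was at 385 to 583 CPM in the NaJa-F libraries and no higher than 0.258 CPM in any NaJa-D library, and Hoxa11 showed the opposite order.

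Other genes with large differences met the same filter, and several of them encode surface or secreted proteins. Procr, the endothelial protein C receptor, was at 58.9 to 78.7 CPM (median 67.5) in NaJa-F and 0.41 to 0.868 CPM (median 0.691) in NaJa-D (log2 fold change 6.77 ± 0.12, adjusted p = 7.9e-27). Scara3, a scavenger receptor, was at 59.3 to 75 CPM against 0.751 to 1.04 CPM (6.36 ± 0.14, adjusted p = 8.9e-25), and NaJa-G averaged 5.59 CPM on day 1. Tnfrsf26, a member of the tumour necrosis factor receptor family, was at 71.7 to 79.6 CPM against 3.00 to 4.58 CPM in NaJa-D and a mean of 3.02 CPM in NaJa-G on day 1. Aldh1a2, which makes retinoic acid, had a log2 fold change of 4.81 ± 0.15, Igfbp7, a secreted growth factor binding protein, of 4.44 ± 0.17, Pkhd1, a ciliary membrane protein, of 4.30 ± 0.10, Fblim1, a filamin binding adaptor of focal adhesions, of 3.85 ± 0.07, and Pcdh7, a protocadherin, of 3.69 ± 0.08. Each of these was nearly absent or low in NaJa-D, with no library above 5.75 CPM. The smallest error relative to its size was that of the membrane serine protease gene Tmprss11e, with 169 to 183 CPM in NaJa-F and 13.7 to 28.8 CPM in NaJa-D (3.15 ± 0.04, adjusted p = 1.4e-29). Fam126a, needed for lipid kinase activity at the plasma membrane, was steady within each line, at 117 to 133 CPM and 32.5 to 36.9 CPM (1.90 ± 0.03).

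Among the genes lower in NaJa-F, Ptprz1, a receptor-type tyrosine phosphatase, had 20.1 to 33.1 CPM in NaJa-D and 0.56 to 0.874 CPM in NaJa-F (-5.17 ± 0.18). Gabrp, a subunit of a GABA receptor found in epithelia, had 35.9 to 147 CPM against 1.69 to 8.45 CPM (-4.15 ± 0.14), and the wide range in NaJa-D was one of days, with means of 43.4 CPM on day 1 and 131 CPM on day 5. Hspb1, a small heat shock chaperone, had 52.7 to 64.5 CPM against 3.60 to 4.58 CPM (-3.92 ± 0.12). Krt4 and Slurp1, products of stratified squamous epithelium, fell together, Krt4 from a median of 145 to 9.97 CPM (-3.90 ± 0.06) and Slurp1 from 17.1 to 1.09 CPM (-3.86 ± 0.16). Runx3, a runt family transcription factor, had 25.2 to 36.2 CPM in NaJa-D and 2.30 to 4.33 CPM in NaJa-F (-3.28 ± 0.12), while NaJa-G averaged 21.7 CPM on day 1. That none of these genes overlapped between the lines was a condition for naming them and is no result.

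Epithelial genes were lower in NaJa-F as a group. Of 18 genes of adhesion and junctions, 14 were lower and 3 higher, with a median log2 fold change of -0.88, and of 11 transcription and splicing factors that maintain epithelia, 10 were lower and 0 higher, with a median of -0.42. Over all genes 32.6% were called higher and 29.0% lower, and the counts of every list below are to be read beside these shares. Epcam, the epithelial adhesion molecule, was at 930 to 1177 CPM in NaJa-D and 446 to 503 CPM in NaJa-F, a log2 fold change of -1.17 ± 0.05 (adjusted p = 3.2e-18). Cdh1, which encodes E-cadherin, was at 1137 to 1696 CPM and 764 to 865 CPM (-0.80 ± 0.05). For both genes the lines did not overlap, and NaJa-G lay lower still, at 90.2 CPM for Epcam and 518 CPM for Cdh1 on day 1. The tight junction claudins Cldn4 (-1.47 ± 0.06) and Cldn3 (-1.43 ± 0.14) fell further. Desmosomal genes were split, since Pkp3, encoding plakophilin 3, fell by 1.06 while Dsp, encoding desmoplakin, had overlapping ranges of 351 to 433 and 357 to 459 CPM. Cdh17, the liver-intestine cadherin, went the other way, from 26.6 to 61.3 CPM in NaJa-D to 83.8 to 111 CPM in NaJa-F (1.15 ± 0.05).

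Among the epithelial regulators the largest differences were those of Grhl3 and Ovol1, which drive barrier formation. Grhl3 was at 9.85 to 16.9 CPM in NaJa-D and 2.90 to 5.50 CPM in NaJa-F (-1.70 ± 0.07), and Ovol1 at 33.3 to 43.5 CPM and 12.1 to 15.1 CPM (-1.57 ± 0.07). Elf3 fell by 0.77, Grhl2 by 0.50 and the splicing regulator Esrp1 by 0.42 on the log2 scale, all without overlap, whereas Klf5 was not called (-0.17 ± 0.07, adjusted p = 0.029). The 11 keratins were uneven, with 6 lower, 3 higher and 2 not called. The basal and wound keratins Krt14 (-3.07 ± 0.16) and Krt6a (-2.65 ± 0.08) and the differentiation keratin Krt20 (-1.69 ± 0.06) fell, and Krt23 rose from at most 0.232 CPM to 3.07 to 6.58 CPM (5.36 ± 0.24). The simple epithelial keratins carried most keratin counts and moved little, with medians of 1150 and 1234 CPM for Krt8 (0.15 ± 0.07, not called), 1020 and 1317 CPM for Krt18 (0.44 ± 0.06, called, overlapping) and 996 and 857 CPM for Krt19 (-0.19 ± 0.07, not called).

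The opposing transcription factors were higher in NaJa-F for 5 of 9 genes and lower for 3. Zeb1, a repressor that binds E-box elements, was at 16.2 to 20.1 CPM (median 18.6) in NaJa-F and 1.27 to 1.65 CPM (median 1.42) in NaJa-D, a log2 fold change of 3.67 ± 0.11 (adjusted p = 9.1e-22). Zeb2 was at 25.1 to 33.1 and 7.33 to 9.46 CPM (1.80 ± 0.06), Snai2 at 3.66 to 5.63 and 0.66 to 2.14 CPM (2.12 ± 0.11), Snai1 at 1.90 to 3.16 and 0.631 to 1.21 CPM (1.28 ± 0.21) and Prrx1 at 2.5 to 5.89 and 0.121 to 0.346 CPM (4.11 ± 0.20). The lines did not overlap for any of the 5. Twist1 was slightly lower in NaJa-F (-0.46 ± 0.06), with overlapping ranges, and Snai3 (-1.14 ± 0.08) and Tcf4 (-0.70 ± 0.04) were lower without overlap. The median of the list was 1.28, and it turned to -0.48 when only genes averaging at least 2 log2 CPM were fitted, since most of the factors that rose were scarce. For Zeb1 and Zeb2 the day 1 means in NaJa-G, 31.0 and 69.0 CPM, lay above NaJa-F.

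Mesenchymal cytoskeleton and adhesion genes followed in part, with 9 of 15 higher, 3 lower and a median of 0.57. Vim, the intermediate filament vimentin, rose from 84.7 to 127 CPM to 304 to 472 CPM (1.86 ± 0.07), which was still far below the 2503 CPM of NaJa-G on day 1. Cald1, an actin binding regulator of contraction, rose from 37.3 to 51.3 CPM to 180 to 190 CPM (1.99 ± 0.05). Several other called members were at very low levels in both lines, since Actg2, Acta2 and Myl9 stayed below 1 CPM in every library, so their fold changes concern traces of RNA. Lgals1, encoding galectin 1, fell from 249 to 453 CPM to 95.6 to 145 CPM (-1.54 ± 0.07), and Cdh2, encoding N-cadherin, was not called, with ranges of 53.5 to 78.6 and 60.1 to 75.5 CPM. Markers that define stromal cells were near 0, as the 6 measured fibroblast markers summed to 1.40 to 2.16 CPM in NaJa-D and 2.29 to 3.19 CPM in NaJa-F, and the 3 measured endothelial markers to 1.29 to 2.00 and 1.14 to 2.06 CPM. The leukocyte markers Ptprc, Adgre1, Lyz2, Cd3e and Itgam were not in the table, and the 4 measured leukocyte markers summed to 38.7 to 48.4 CPM in NaJa-D and 33.6 to 36.3 CPM in NaJa-F, nearly all of it Cd14, an endotoxin coreceptor. The 3 measured mesothelial markers summed to 1225 to 1514 and 660 to 985 CPM, which was almost entirely Msln, encoding mesothelin (-0.85 ± 0.08), while Upk3b and Lrrn4 were at means of 1.57 and 1.92 CPM in NaJa-D and 0.156 and 1.32 CPM in NaJa-F. In a culture, fewer cells of one state and less RNA per cell cannot be told apart.

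**Figure D2:**
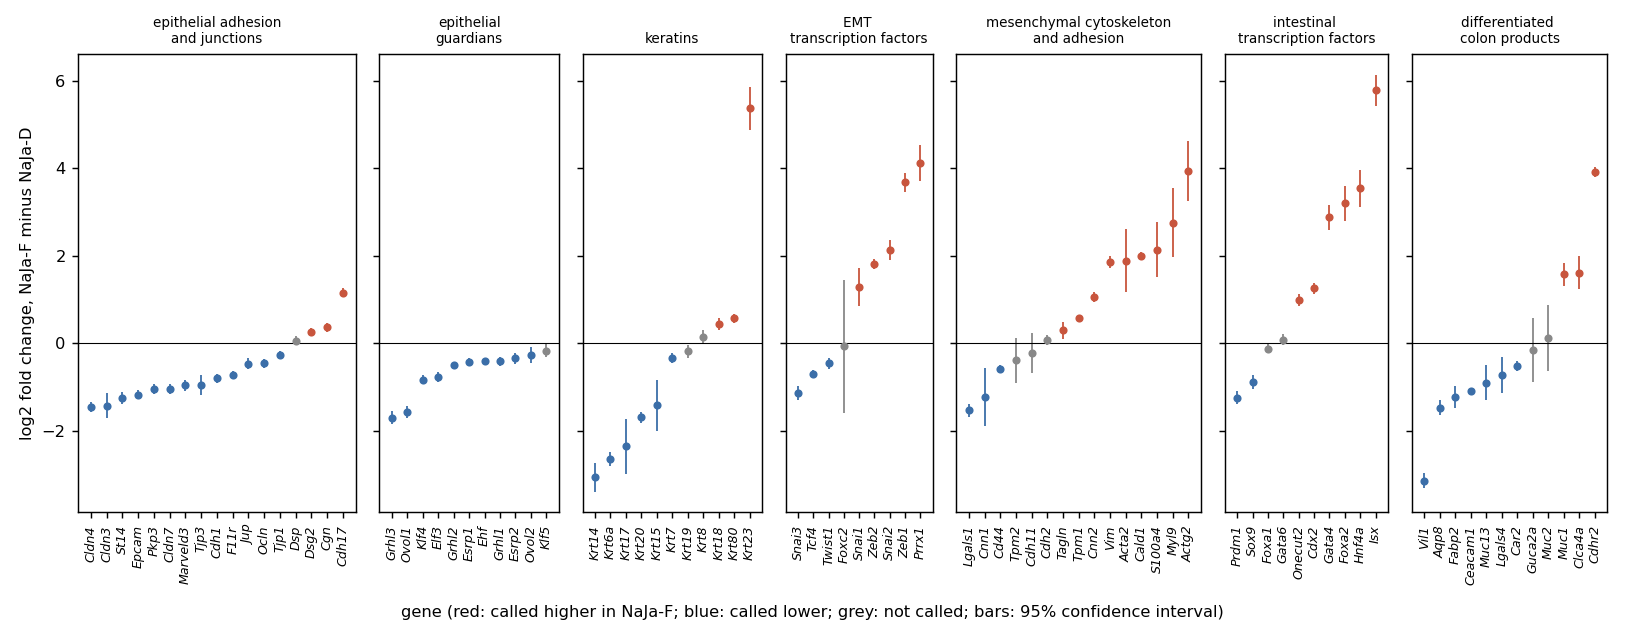
Log2 fold change of NaJa-F over NaJa-D on the y axis for the measured members of 7 gene lists other than 3 not reported here, sorted within each list, with 95% confidence intervals from limma and colour for the call. Epithelial adhesion and maintenance genes lay mostly below 0, while Zeb1 (3.67), Hnf4a (3.54) and Isx (5.78) lay far above it.

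Because the E-box CACCTG is the element that ZEB and SNAI repressors bind, the 250 bases before the start of each gene were searched for it. RefSeq promoters on GRCm38.p6 were matched to 10221 of the 14107 genes, taking for each gene the start nearest to its annotated 5' end. The letters CACCTG, read on both strands, occurred in 15.3% of all 10221 promoters, in 16.0% of the 694 promoters of genes called higher in NaJa-F by at least 1 on the log2 scale, and in 25.8% of the 546 promoters of genes called lower by as much. The larger share among lower genes was present in promoters with fewer CpG than the median promoter (29.4% against 16.7% of all such promoters) and in the others (19.7% against 13.9%). AP-1 sites, written TGANTCA, were found in 4.52% of all promoters, 9.65% of those of higher and 7.69% of those of lower genes. TEAD sites (GGAATG) were found in 10.9%, 13.5% and 14.7%, TCF sites (CTTTGAT) in 2.31%, 3.17% and 3.48%, and HNF4 sites (CAAAGTCCA) in 0.303%, 0.288% and 0.366%. These called genes had fewer CpG in their promoters, with medians of 9 for higher and 11 for lower genes against 16 over all. Among promoters with fewer CpG than the median, AP-1 shares were 7.10% of all, 12.6% of higher and 10.2% of lower genes. There TEAD shares were 14.1%, 15.9% and 18.4%, and TCF shares 3.45%, 3.98% and 4.37%. Among the others AP-1 shares were 2.12%, 3.23% and 3.45%, TEAD 7.88%, 8.29% and 8.37%, and TCF 1.25%, 1.38% and 1.97%. Each motif was searched on its own, so letters shared by 2 motifs counted for both, and these shares are descriptions with no test, a match being no proof of binding. Among the 16 epithelial adhesion and maintenance genes with a promoter, 14 were called lower. The E-box was held by 6 of the 16 (37.5%), namely Grhl3, Cldn4, Epcam, Tjp3, Elf3 and F11r, which were all among the 14. Most members without it were lower as well, namely Cldn3, Cldn7, Klf4, Jup, Ocln, Grhl1, Tjp1 and Ovol2. With 14 of the 16 lower, this overlap was nearly fixed, and a link between E-box and call was not tested.

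The sequences of 6 promoters are shown as examples, picked with the results known. They are those of 3 epithelial genes that were lower and hold the E-box, the gene with the largest rise, the receptor gene Axl and Hoxa11. Each is the stretch of 250 bases that ends just before the RefSeq start, 5′ to 3′ on the strand of the gene, and capitals mark any of the 5 motifs on either strand.
Epcam (chr17:87635729-87635978, plus strand): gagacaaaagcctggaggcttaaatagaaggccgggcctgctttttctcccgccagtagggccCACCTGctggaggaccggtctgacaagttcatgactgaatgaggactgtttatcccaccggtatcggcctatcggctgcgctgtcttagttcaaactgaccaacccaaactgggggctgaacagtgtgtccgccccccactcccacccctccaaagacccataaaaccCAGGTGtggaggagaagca
Cldn4 (chr5:134946935-134947184, minus strand): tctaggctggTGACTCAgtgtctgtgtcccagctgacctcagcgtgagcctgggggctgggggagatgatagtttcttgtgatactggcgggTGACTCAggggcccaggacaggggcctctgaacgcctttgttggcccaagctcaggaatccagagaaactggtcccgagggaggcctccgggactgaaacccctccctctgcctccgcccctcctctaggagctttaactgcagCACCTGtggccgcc
Grhl3 (chr4:135573633-135573882, minus strand): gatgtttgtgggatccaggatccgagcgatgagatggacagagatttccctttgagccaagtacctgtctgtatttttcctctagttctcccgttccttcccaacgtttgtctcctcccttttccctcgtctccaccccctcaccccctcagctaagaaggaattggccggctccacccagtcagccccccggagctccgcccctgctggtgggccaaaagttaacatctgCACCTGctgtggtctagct
Ptgs2 (chr1:150099781-150100030, plus strand): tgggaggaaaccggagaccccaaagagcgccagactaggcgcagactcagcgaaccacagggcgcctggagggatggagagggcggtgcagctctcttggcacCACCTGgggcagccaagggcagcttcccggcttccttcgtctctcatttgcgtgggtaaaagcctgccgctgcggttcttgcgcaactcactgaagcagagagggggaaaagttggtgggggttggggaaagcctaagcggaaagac
Axl (chr7:25788734-25788983, minus strand): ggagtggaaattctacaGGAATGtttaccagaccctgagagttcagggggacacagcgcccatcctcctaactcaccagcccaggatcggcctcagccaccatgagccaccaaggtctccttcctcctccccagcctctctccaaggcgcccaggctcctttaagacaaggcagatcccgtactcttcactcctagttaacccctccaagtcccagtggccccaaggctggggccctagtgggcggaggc
Hoxa11 (chr6:52245811-52246060, minus strand): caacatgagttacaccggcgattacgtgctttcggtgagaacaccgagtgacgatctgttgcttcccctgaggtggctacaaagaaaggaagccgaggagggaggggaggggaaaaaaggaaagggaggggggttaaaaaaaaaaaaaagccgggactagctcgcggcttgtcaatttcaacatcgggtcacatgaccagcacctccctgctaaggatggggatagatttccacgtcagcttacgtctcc
In Epcam the E-box occurred at 187 and at 19 bases before the start, in Grhl3 at 19 and in Cldn4 at 14. These 3 were picked because they were lower and hold the E-box, and its distance to the start was not counted over other promoters. Cldn4 also held 2 AP-1 sites, at 240 and 158, and lies in a stretch of chromosome 5 whose genes were mostly lower (described below). The Ptgs2 promoter held 1 E-box at 147 although the gene was higher in NaJa-F, the Axl promoter held 1 TEAD site at 233, and none of the letters searched were in the Hoxa11 window. CpG dinucleotides numbered 8 in Epcam, 7 in Cldn4, 8 in Grhl3, 13 in Ptgs2, 5 in Axl and 13 in Hoxa11, against a median of 16 over all promoters.

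Transcription factors of intestinal identity were mostly higher in NaJa-F, in contrast to the junction genes. Of 12 measured, 7 were higher, 2 lower and 3 not called, with a median of 1.12. Cdx2, the master regulator of intestinal fate, was at 49.7 to 56.0 CPM in NaJa-F and 20.5 to 24.6 CPM in NaJa-D (1.25 ± 0.06, adjusted p = 2e-16). Isx, an intestine-specific homeobox gene that controls vitamin A uptake, rose from 0.303 to 0.565 CPM to 19 to 26.5 CPM (5.78 ± 0.17), and NaJa-G stayed at 0.227 CPM on day 1. Hnf4a (3.54 ± 0.20), Gata4 (2.88 ± 0.14) and Foxa2 (3.2 ± 0.20) rose from at most 0.649 CPM to a few CPM. Sox9, a factor of crypt progenitors, fell from 119 to 157 CPM to 64.3 to 78.0 CPM (-0.89 ± 0.08), and Prdm1, a repressor of the fetal gut, fell from a median of 17.3 to 8.20 CPM (-1.24 ± 0.07). The median of the list was -0.02 when only genes averaging at least 2 log2 CPM were fitted, since several factors that rose were scarce.

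The products of differentiated colonocytes did not rise with these factors. Of 12 measured, 3 were higher and 7 lower, with a median of -0.62, and 16 further listed products were not in the table. Vil1, the microvillus actin bundler villin, was at 6.19 to 14.0 CPM in NaJa-D and 0.623 to 1.72 CPM in NaJa-F (-3.15 ± 0.09, adjusted p = 1.4e-22), while Cdhr2, a protocadherin that links microvilli, was at 10.5 to 27.0 and 209 to 309 CPM (3.91 ± 0.05). Both parts of the brush border thus moved in opposite directions without overlap. The water channel Aqp8 fell from a median of 73.1 to 25.2 CPM (-1.48 ± 0.08), with overlapping ranges. The goblet cell mucin Muc2 did not exceed 0.344 CPM in any of the 12 libraries. Of 12 listed gastric and foregut genes 4 were measured, of which 2 were higher, 1 lower and 1 not called. The gastric mucin Muc5ac rose from 0.519 to 2.97 CPM to 9.51 to 11.7 CPM (2.69 ± 0.13) and the foregut factor Sox2 from 4.22 to 5.78 CPM to 13.2 to 16.7 CPM (1.65 ± 0.09), and Psca, a surface antigen, was lower (-0.50 ± 0.09). Sox2 lies in a stretch of chromosome 3 whose genes were mostly higher (described below).

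The homeobox genes differed mainly in the Hoxa cluster on chromosome 6. Anterior members were lower by modest amounts, with log2 fold changes of -0.49 ± 0.19 for Hoxa2 (not called), -0.79 ± 0.11 for Hoxa3, -0.87 ± 0.09 for Hoxa4, -1.06 ± 0.19 for Hoxa5, -1.25 ± 0.23 for Hoxa6 and -0.58 ± 0.08 for Hoxa7. The posterior members were lower by more, at -2.18 ± 0.07 for Hoxa9, -2.45 ± 0.06 for Hoxa10, -10.10 ± 0.40 for Hoxa11 and -4.84 ± 0.21 for Hoxa13. Hoxa9 was at 61.8 to 94.9 CPM in NaJa-D and 14.3 to 18.7 CPM in NaJa-F, and Hoxa10 at 39.2 to 59.0 and 7.48 to 10.5 CPM. In NaJa-G, Hoxa9 and Hoxa10 averaged 53 and 39.5 CPM on day 1, close to NaJa-D, whereas Hoxa13 was at 0.123 CPM in NaJa-G and 1.04 to 1.62 CPM in NaJa-D. Of 23 measured homeobox cluster genes 12 were lower and 2 higher, and the 2 were Hoxb7 (0.43 ± 0.04) and Hoxb8 (0.48 ± 0.08). The other measured Hoxb genes, Hoxb2 to Hoxb6 and Hoxb9, were not called.

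**Figure D3:**
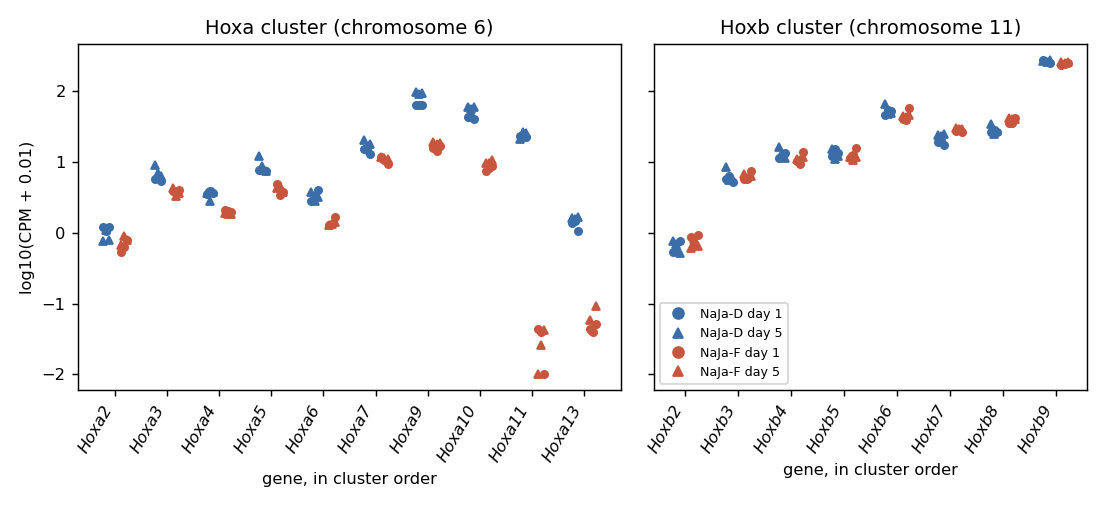
Abundance of Hoxa2 to Hoxa13 and of the measured Hoxb genes in each DMSO library, as log10 of CPM plus 0.01, in cluster order from anterior to posterior, with NaJa-D in blue and NaJa-F in red, circles for day 1 and triangles for day 5. The lines lay furthest apart from Hoxa9 onwards, with Hoxa11 at 20.8 to 25.9 CPM in NaJa-D against at most 0.0343 CPM, and lay close together in Hoxb.

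WNT target genes did not move as a block. With Apc inactivated in both lines, 10 of 21 targets and stem cell genes were higher in NaJa-F, 8 lower and 3 not called, with a median of -0.03. The median ranged from -0.35 with only genes averaging at least 2 log2 CPM, where 3 of 14 were higher and 8 lower, to 0.09 when libraries were scaled by total counts. Higher genes included Nkd1, a feedback inhibitor of the pathway, from 0.606 to 1.49 CPM to 7.85 to 29.5 CPM (4.04 ± 0.18), the nuclear effector Lef1, from at most 0.238 CPM to 1.81 to 3.92 CPM (4.34 ± 0.26), the zinc finger gene Sp5 (3.38 ± 0.37) and Smoc2, a matricellular marker of crypt base cells, from 11.5 to 17.9 CPM to 69.7 to 96.7 CPM (2.57 ± 0.05). For Nkd1 and Smoc2, NaJa-G was higher again, at 84.8 and 296 CPM on day 1. The classical feedback genes Rnf43 (-1.26 ± 0.05), Axin2 (-0.59 ± 0.04) and Znrf3 (-0.55 ± 0.04) were lower, with Rnf43 at 219 to 297 CPM in NaJa-D and 98.7 to 118 CPM in NaJa-F. Myc was not called, with medians of 225 and 203 CPM. Lgr5, the receptor that marks stem cells, was low in both lines, at 0.984 to 2.57 and 1.58 to 5.55 CPM, overlapping but called (0.75 ± 0.10).

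Of 28 members of the TGF-beta and BMP pathway 9 were higher and 11 lower, 71.4% called against 61.6% of all genes. The ligands of the pathway went in both directions. Bmp7 rose from 0.376 to 0.563 CPM to 28.0 to 47.6 CPM (6.17 ± 0.20, adjusted p = 6.4e-21), whereas Bmp2 fell from 168 to 287 CPM to 102 to 114 CPM (-1.12 ± 0.07), Bmp4 from 32.8 to 50.6 CPM to 18.4 to 21.2 CPM (-1.05 ± 0.05) and Tgfb3 from 6.39 to 7.79 CPM to 0.446 to 0.858 CPM (-3.44 ± 0.15). Among genes that handle the ligands, Ltbp1, which holds latent TGF-beta in the matrix, rose from 8.91 to 13.4 CPM to 43.7 to 56.2 CPM (2.14 ± 0.06). The BMP target Id1 was not called (-0.20 ± 0.09, adjusted p = 0.052), nor were Smad3 and Tgfbr2, while the receptor genes Tgfbr1 (-0.43 ± 0.06), Bmpr1a (-0.33 ± 0.06) and Bmpr2 (-0.29 ± 0.06) were lower. In the Notch pathway the receptor Notch3 fell from 5.85 to 19.9 CPM to 0.416 to 0.883 CPM (-4.25 ± 0.18), the ligand Jag2 from a median of 303 to 89.8 CPM (-1.75 ± 0.06) and the receptor-modifying enzyme Lfng from 143 to 53.7 CPM (-1.37 ± 0.06). The ligands Dll1 (1.53 ± 0.15) and Dll4 (1.76 ± 0.22) and the target Hey1 (2.24 ± 0.22) rose, each from a low level.

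Of 27 receptor tyrosine kinases 7 were higher and 10 lower, 63.0% called against 61.6% of all genes. Axl was at 579 to 784 CPM (median 637) in NaJa-F and 30.6 to 48.8 CPM in NaJa-D, a log2 fold change of 4.08 ± 0.07. Its ligands rose with it, Gas6 from 16.3 to 19 CPM to 58.2 to 65.2 CPM (1.82 ± 0.05, adjusted p = 2.8e-23) and Pros1 from 0.305 to 0.754 CPM to 2.70 to 3.98 CPM (2.87 ± 0.15), and the related receptor Mertk rose from a median of 0.56 to 1.24 CPM (1.06 ± 0.14). Fgfr1 rose from 2.23 to 3.03 CPM to 7.10 to 10.3 CPM (1.73 ± 0.07). The ligand gene Fgf2 rose too (1.37 ± 0.17), and it lies in a stretch of chromosome 3 whose genes were mostly higher (described below). Of 23 measured receptor kinase ligands 14 were higher and 5 lower, so receptors and ligands did not all rise together. Lower receptors included Ror1 (-1.98 ± 0.07) and Ror2 (-1.07 ± 0.08), receptors for WNT ligands, Mst1r (-1.45 ± 0.19), Erbb3 from 184 to 240 CPM to 75.8 to 106 CPM (-1.22 ± 0.05), Erbb2 (-1.03 ± 0.05), Igf1r from 111 to 154 CPM to 55.2 to 75.2 CPM (-1.03 ± 0.06) and its adaptor Irs1 (-1.17 ± 0.06), together with Igfbp3, which binds the growth factors in the medium, from 1271 to 1667 CPM to 512 to 594 CPM (-1.41 ± 0.04). Egfr was not called, with medians of 121 and 118 CPM, and Met differed by -0.19 ± 0.06. Of 20 genes that report ERK activity 10 were higher and 2 lower with a median of 0.15, among them Dusp6, from 99.4 to 139 CPM to 140 to 178 CPM (0.44 ± 0.05), and Egr1 (1.10 ± 0.09, overlapping).

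Of 19 targets of the YAP coactivator and genes of fetal intestinal epithelium, 10 were higher and 6 lower, with a median of 0.20. Of the 19, 3 lie in stretches of chromosomes whose neighbouring genes moved together (described below). Without them, 7 of 16 were higher and 6 lower, and the median was 0.06. Ankrd1, a direct YAP target, rose from 58.9 to 91.9 CPM to 245 to 349 CPM (1.88 ± 0.05, adjusted p = 1.7e-22), the secreted chaperone gene Clu from 487 to 802 CPM to 1313 to 1659 CPM (1.19 ± 0.06) and the DNA binding partner Tead2 from 6.86 to 10.8 CPM to 23.7 to 27.1 CPM (1.59 ± 0.08). Ly6a, which encodes the fetal marker SCA-1, fell from 2052 to 2923 CPM to 1144 to 1332 CPM (-0.97 ± 0.05). The list therefore held genes that moved strongly in both directions, and Yap1 itself was not called (0.11). In the PI3K, AKT and mTOR list of 34 genes, 13 were higher and 9 lower with a median of 0.10. The share called was 64.7%, against 61.6% of all genes. Among the higher genes was the mTOR inhibitor Deptor, from 12 to 14.8 CPM to 20.1 to 32.2 CPM (0.89 ± 0.05).

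Of 26 laminins and matrix glycoproteins 15 were lower in NaJa-F and 7 higher. Lama3 and Lamb3, which encode chains of a laminin that anchors epithelium through integrin alpha 6 beta 4, fell together, Lama3 from 396 to 1192 CPM to 181 to 263 CPM (-1.70 ± 0.05) and Lamb3 from 868 to 1531 CPM to 318 to 437 CPM (-1.70 ± 0.06). The integrin chains Itgb4 (-1.09 ± 0.06) and Itga6 (-0.68 ± 0.05) and the network collagen Col4a1 (-0.71 ± 0.06) fell as well, while Lamb1, a laminin beta chain, rose (0.59 ± 0.05) and the nidogens Nid1 (1.63 ± 0.17) and Nid2 (1.83 ± 0.27) rose from low levels. Thbs1, encoding thrombospondin 1, fell from 3971 to 5036 CPM to 1289 to 1391 CPM (-1.74 ± 0.05, adjusted p = 3.5e-22). Of 19 collagens 7 rose and 7 fell, and the median of 0.41 turned to -0.72 among genes averaging at least 2 log2 CPM, because most collagens that rose were scarce. The list was led by Col6a1, from at most 0.524 CPM to 3.95 to 8.16 CPM (4.53 ± 0.27), and Col12a1, from 62.8 to 124 CPM to 5.18 to 15.1 CPM (-3.24 ± 0.09). Among 14 integrins, Itga2, a collagen receptor chain, rose from 7.47 to 10.4 CPM to 74.4 to 90.1 CPM (3.16 ± 0.08), and Itgb7, a chain known from gut homing lymphocytes, fell from 38.6 to 82.6 CPM to 5.50 to 9.35 CPM (-2.90 ± 0.09). Of 30 proteases and inhibitors 8 were higher and 14 lower, 73.3% called against 61.6% of all genes. Among the lower genes, Mmp14, a membrane-bound collagenase, was at 335 to 408 and 191 to 233 CPM (-0.83 ± 0.04). Serpine2, an inhibitor of urokinase and thrombin, was at 80.3 to 104 and 22.3 to 24.9 CPM (-1.93 ± 0.05).

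Guidance cues first known from axons were mostly lower in NaJa-F. Of 29 semaphorin, slit and netrin pathway genes 15 were lower and 5 higher, with a median of -0.35. Slit2, a repulsive ligand, fell from 120 to 179 CPM to 31.1 to 39.6 CPM (-2.19 ± 0.05, adjusted p = 7.7e-24), Sema3b from 76.8 to 125 CPM to 14.6 to 21 CPM (-2.52 ± 0.06) and the coreceptor Nrp1 from 54.0 to 109 CPM to 24.3 to 28.4 CPM (-1.53 ± 0.06). The receptor gene Robo1 (1.55) and the ligand Ntn1 (1.94 ± 0.18) were higher, Ntn1 at no more than 2.69 CPM. Of 17 ephrin receptors and ligands 10 were lower and 3 higher, with Epha1 falling from 65.3 to 88.1 CPM to 25.7 to 28.0 CPM (-1.54 ± 0.05).

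Secreted inflammatory factors were higher in NaJa-F for 15 of 27 measured genes and lower for 7, with a median of 0.97. Csf1, the growth factor of macrophages, rose from 22.5 to 35.1 CPM to 60.5 to 84.2 CPM (1.35 ± 0.04, adjusted p = 2.5e-22), Lif, a cytokine of the interleukin 6 family, from 16.2 to 18.5 CPM to 36.4 to 45.4 CPM (1.17 ± 0.04), and the interleukin 1 antagonist Il1rn from 18.3 to 21.2 CPM to 47.3 to 51.6 CPM (1.33 ± 0.04). The granulocyte factors Csf3 (1.93 ± 0.13) and Csf2 (1.68 ± 0.13) and the neutrophil attractants Cxcl3 (1.43 ± 0.06), Cxcl1 (1.19 ± 0.13) and Cxcl2 (1.58 ± 0.28) rose without overlap, Cxcl2 at no more than 1.23 CPM. The decoy receptor Tnfrsf11b fell from 49.7 to 122 CPM to 10.9 to 28.1 CPM (-2.22 ± 0.09). Of the 27 genes, 7 lie in stretches of chromosomes whose neighbouring genes moved together (described below), 5 of them CXC chemokines on chromosome 5 that rose. Without the 7, 9 of 20 were higher and 6 lower, and the median was 0.10, so the size of the list's median rests on the genes in these stretches.

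Genes of antigen presentation and immune recognition were split. Of 17 class I and loading genes 5 were higher and 8 lower, H2-K1 at 296 to 454 CPM in NaJa-D and 224 to 264 CPM in NaJa-F (-0.64 ± 0.05) and H2-D1 at 420 to 559 and 225 to 296 CPM (-0.93 ± 0.06), while B2m was not called, with medians of 88.8 and 88.3 CPM. These class I genes are close relatives, so counting may split their reads. Ulbp1, a stress ligand for the NKG2D receptor of natural killer cells, rose from 2.30 to 5.65 CPM to 59.8 to 75.9 CPM (4.11 ± 0.08, adjusted p = 7.9e-26). Lgals9, encoding galectin 9, rose from 11.6 to 15.2 CPM to 41.9 to 46.4 CPM (1.69 ± 0.06), and Pdcd1lg2, encoding PD-L2, from 1.21 to 2.60 CPM to 3.29 to 5.04 CPM (1.14 ± 0.12), whereas Cd274, encoding PD-L1, was not called (0.22 ± 0.09, adjusted p = 0.040). Vtcn1, the inhibitory ligand B7-H4, fell from a median of 8.01 to 1.88 CPM (-2.08 ± 0.11), and Cd47, the signal against phagocytosis, from 75.2 to 94.0 CPM to 48.9 to 53.8 CPM (-0.69 ± 0.05). Of 29 interferon genes 8 were higher and 8 lower, 55.2% called against 61.6% of all genes. The largest difference was that of Tmem173, which encodes the DNA sensing adaptor STING, from 2.93 to 3.87 CPM to 17.1 to 19.6 CPM (2.38 ± 0.07). Its upstream enzyme gene Cgas was not called (0.13 ± 0.06).

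Lipid synthesis genes were mostly lower. Of 25 genes of cholesterol and fatty acid synthesis 20 were lower in NaJa-F and 2 higher, with a median of -0.59, and 1 of the 2 was Insig1. The stearoyl desaturase Scd2 fell from 2767 to 5125 CPM to 1055 to 1771 CPM (-1.39 ± 0.05, adjusted p = 6.1e-19). The regulators Srebf1, from 452 to 607 CPM to 219 to 240 CPM (-1.19 ± 0.07), and Srebf2 (-0.70 ± 0.07) fell too. Of 28 glycolysis and hypoxia genes 16 were lower and 6 higher, led by the lactate exporter Slc16a3, from 13.1 to 28.3 CPM to 1.92 to 2.99 CPM (-3.05 ± 0.13), and including the glucose transporter Slc2a1 (-0.74 ± 0.06). Over 199 solute carriers 102 were lower and 40 higher, with a median of -0.30.

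Of 21 genes of the ATF4 and unfolded protein responses 12 were lower and 4 higher. The amino acid transporter gene Slc7a5 fell from 628 to 954 CPM to 333 to 461 CPM (-1.04 ± 0.06), and the serine synthesis gene Psat1 rose from 152 to 187 CPM to 225 to 306 CPM (0.62 ± 0.05). The median of the list was -0.22 over both days, 0.02 at day 1 and -0.33 at day 5.

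Detoxification genes leaned the other way, with 19 of 33 higher, 6 lower and a median of 0.33. Aldh1a1, a retinaldehyde dehydrogenase, rose from 37.5 to 83.5 CPM to 132 to 219 CPM (1.70 ± 0.05) and Aldh3a1 from 6.87 to 7.13 CPM to 20.4 to 31.9 CPM (1.89 ± 0.07, adjusted p = 1.4e-19), while the export pump Abcc3 fell from 75.3 to 139 CPM to 15.4 to 25.3 CPM (-2.38 ± 0.06). Each of the 13 mitochondrially encoded protein genes was lower in NaJa-F, from -0.55 for mt-Nd2 to -1.08 for mt-Atp6 and mt-Atp8, with a median of -0.87. The gene mt-Co1 had 27834 to 35464 CPM in NaJa-D and 12888 to 14566 CPM in NaJa-F on day 1, a log2 fold change of -1.15, and 7831 to 8830 CPM against 5807 to 7181 CPM on day 5, a log2 fold change of -0.36. The lines did not overlap within a day and overlapped when days were pooled. The mitochondrial share was likewise 6.59% to 8.01% in NaJa-D against 3.52% to 3.8% in NaJa-F on day 1, and 2.3% to 2.68% against 1.78% to 2.14% on day 5. The mitochondrial share of a library depends on sample handling as well as on the cells, and its part here was not tested. Of 81 ribosomal protein genes 44 were higher and 4 lower, all by less than 1, with a median of 0.21. When libraries were scaled by total count alone, the median over all genes moved to 0.14.

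Proliferation genes differed little. Of 22, 12 were higher and 2 lower, none by 1 or more, with a median of 0.15. Ccna2 was at 136 to 165 CPM in NaJa-D and 216 to 237 CPM in NaJa-F (0.61 ± 0.04), while Mki67 was lower (-0.47 ± 0.07, overlapping). Ccna2 lies in a stretch of chromosome 3 with a median of 0.39 (described below). Among cell cycle regulators Ccnd2, which encodes cyclin D2, rose from 3.71 to 5.86 CPM to 29.0 to 44.4 CPM (3.11 ± 0.10, adjusted p = 2.2e-21), and NaJa-G had 204 CPM on day 1. Ccnd1 differed by 0.22 ± 0.06, and Cdkn2a was not called. Cdkn1a, the p21 inhibitor, fell from 17.8 to 29.1 CPM to 13.1 to 15.4 CPM (-0.67 ± 0.05). Of 31 death genes 16 were higher and 3 lower. Ripk3, the kinase of necroptosis, rose from 11.4 to 17.9 CPM to 31.7 to 36.0 CPM (1.28 ± 0.04, adjusted p = 5.4e-21), and Gsdmd, a pore protein of pyroptosis, from 2.56 to 5.42 CPM to 5.65 to 9.34 CPM (1.13 ± 0.13), whereas the pro-apoptotic Bmf fell from a median of 12 to 4.28 CPM (-1.40 ± 0.13, overlapping). Of 22 genes that p53 can induce, 10 were higher and 5 lower, 68.2% called against 61.6% of all genes. Plk2, a polo-like kinase, was at 68.9 to 122 and 197 to 228 CPM (1.20 ± 0.06) and Perp, a desmosomal protein, at 242 to 360 and 155 to 193 CPM (-0.81 ± 0.05). Of 19 imprinted genes 4 were higher, 5 lower and 10 not called, led by Sgce, encoding epsilon-sarcoglycan, from 0.278 to 0.752 CPM to 4.0 to 5.70 CPM (3.44 ± 0.14). Of the engineered genes, Braf was not called, and Trp53 (0.36 ± 0.04) and Apc (0.43 ± 0.06) were slightly higher in NaJa-F, which says nothing of the mutant alleles, since counts do not separate them.

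The differences were not spread evenly over the genome. Chromosome medians lay between -0.13 and 0.13 for 15 of the 20 chromosomes other than Y, and outside it for chromosome 3 (0.41), chromosome 13 (0.29), chromosome X (0.25), chromosome 5 (-0.20) and chromosome 7 (-0.27). On chromosome 3, 81.3% of 734 genes had a positive log2 fold change, and 444 were called higher against 63 lower. On chromosome 7, 24.3% of 1021 genes were positive, with 131 higher and 540 lower. For 51 neighbouring genes at a time, the running median stayed beyond 0.3 in either direction over at least 51 genes in 7 stretches, 2 on chromosome 3, 3 on chromosome 5 and 1 each on chromosomes 7 and 13.

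Chromosome 5 was the only one on which stretches of both directions were found. From Sema3a to Eif2b4 (13.1 to 31.2 megabases) 79.8% of genes were positive and the median was 0.84, or 1.80-fold, and the running median reached 1.22 near Srpk2. From Smim14 to Scarb2 (65.4 to 92.4 megabases) the median was 0.69, or 1.61-fold. From Scarb1 to Rnf6 (125.3 to 146.2 megabases) only 8.98% of genes were positive, 205 were lower against 9 higher, and the median was -0.72, or 1.65-fold lower. The shifts were alike in each library, as the median over the genes of the first stretch, taken relative to the NaJa-D mean, was 0.76 to 0.91 in the NaJa-F libraries and -0.02 to 0.02 in those of NaJa-D, and that of the third was -0.71 to -0.58 and -0.07 to 0.08. They held at both days, with medians of 0.86 and 0.88 for the first stretch and -0.72 and -0.70 for the third at day 1 and day 5. For NaJa-G over NaJa-D the medians of the 3 stretches were 0.24, 0.26 and -0.96, and both comparisons share the NaJa-D libraries. Chromosome 3 was shifted along its whole length, since the libraries of NaJa-F lay at 0.36 to 0.43 in the first stretch, at 0.41 to 0.45 in the second and at 0.37 to 0.42 in the rest of the chromosome. Its first and second stretch had medians of 0.47 and 0.38 for NaJa-G over NaJa-D, and of 0.10 and 0.05 for NaJa-G over NaJa-F. The stretches of chromosomes 7 and 13 had medians of -0.30 and 0.28 for NaJa-G over NaJa-D, and of 0.05 and -0.07 for NaJa-G over NaJa-F. In the stretches of chromosomes 3, 7 and 13, NaJa-G thus lay nearer to NaJa-F than to NaJa-D.

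Genes named above that lie in these stretches include Cldn3, Cldn4, Lfng and Hspb1, which were lower, in the third stretch of chromosome 5. Cxcl1, Cxcl2, Cxcl3, Igfbp7 and Tmprss11e lie in the second and Fam126a in the first. Csf1, Lef1, Vtcn1, Fgf2 and Ccna2 lie in those of chromosome 3, and Axl in the stretch of chromosome 7 (Fosb to Snrpa, median -0.39), whose neighbours were mostly lower. In all, the 7 stretches held 9.02% of the genes and 16.0% of those called with a size of 1 or more on the log2 scale, and outside them 60.1% of genes were called. Of the adhesion and junction genes outside, 11 of 14 were lower. Counts without the stretches leave in any genes elsewhere on these chromosomes. Among genes averaging at least 2 log2 CPM, the rest had medians of 0.40 on chromosome 3, -0.17 on 5, -0.27 on 7 and 0.28 on 13. On chromosome Y, 4 of 8 genes were higher in NaJa-F and 0 lower, with Ddx3y rising from 36.4 to 60.1 CPM to 68.2 to 97.2 CPM (0.88 ± 0.07), and the other 3 were Eif2s3y, Uty and Kdm5d.

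**Figure D4:**
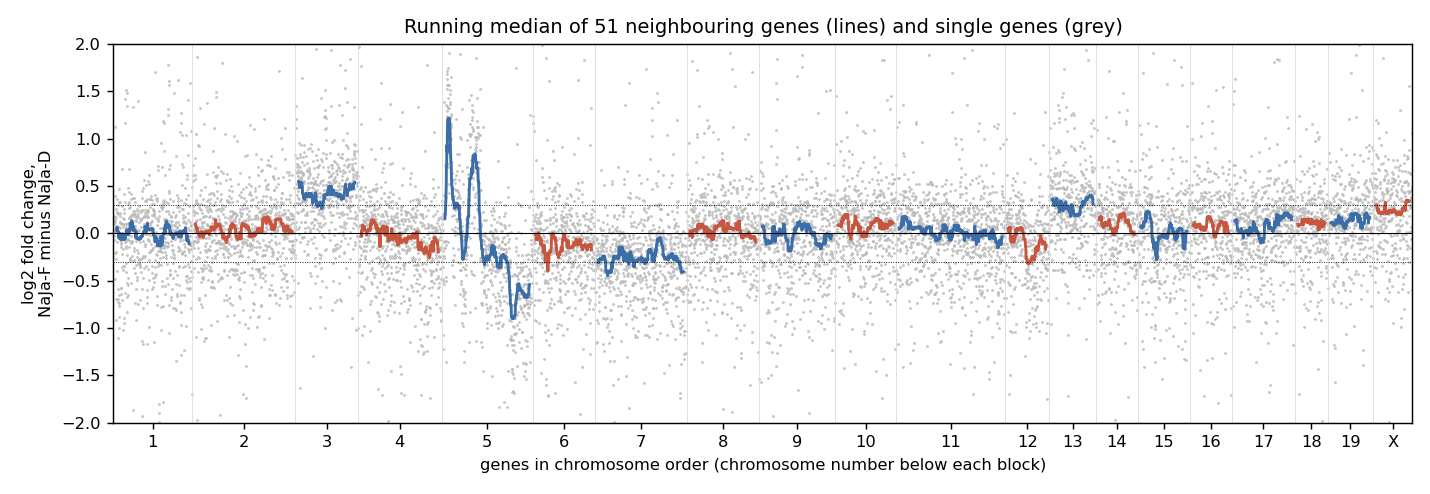
Log2 fold change of NaJa-F over NaJa-D for single genes (grey, y axis cut at 2 in either direction, which leaves out 121 genes) and its running median over 51 neighbouring genes (lines), with genes that averaged at least 2 log2 CPM placed in chromosome order on the x axis and dotted lines at 0.3 above and below 0. Chromosome 3 lay above 0 throughout, chromosome 7 below it, and chromosome 5 ran from 1.22 to -0.90.

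A test of whether the line difference changed from day 1 to day 5 called 624 genes (4.42%), 424 (3.01%) with a more positive and 200 (1.42%) with a more negative difference at day 5. Without the library whose cell line field reads NaJa-G, 268 were called, of which 264 were among the 624. Scaled by total counts alone, 686 were called, but 32.7% rather than 67.9% of them were more positive at day 5, so the prevailing direction of the time dependence is not fixed by these data. With only the 12 DMSO libraries in the fit, 515 were called, of which 388 were among the 624 and 54.2% were more positive at day 5. In the fit on all libraries, 32 genes were called at both days with opposite signs. Time itself changed NaJa-D for 4090 genes (29.0%) and NaJa-F for 2361 (16.7%), with adjusted p below 0.01 in each line, but these counts were not tested against each other.

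The largest time dependence among genes averaging at least 2 log2 CPM with more positive values at day 5 was that of Muc5ac, which fell in NaJa-D from 2.87 ± 0.10 to 0.887 ± 0.33 CPM (mean ± SD, n = 3) and stayed near 10 in NaJa-F, at 9.85 ± 0.29 and 10.7 ± 0.96 CPM. Tgfbi, an extracellular matrix protein induced by TGF-beta, was steady in NaJa-D at 19 ± 3.1 and 18.5 ± 2.5 CPM and rose in NaJa-F from 9.06 ± 0.60 to 28.2 ± 0.89 CPM, so it was lower in NaJa-F at day 1 (-1.06) and higher at day 5 (0.62). Enpp2, which encodes autotaxin, rose in NaJa-F from 13.4 ± 1.0 to 40.5 ± 2.5 CPM and little in NaJa-D, from 9.55 ± 0.42 to 11.3 ± 1.3 CPM. Among the genes with more negative values at day 5, Trib3 and Chac1, targets of ATF4 in the stress response, rose in NaJa-D from 4.41 ± 0.15 to 10.7 ± 0.73 CPM and from 6.12 ± 0.52 to 11.5 ± 0.13 CPM. In NaJa-F they were at 6.49 ± 0.65 and 5.87 ± 0.28 CPM, and at 8.26 ± 0.44 and 6.07 ± 0.46 CPM. Both were thus higher in NaJa-F at day 1 and lower at day 5. Cxcl3 rose in NaJa-D from 9.33 ± 1.2 to 20.5 ± 1.9 CPM and was at 40.6 ± 0.88 and 33.9 ± 1.0 CPM in NaJa-F.

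**Figure D5:**
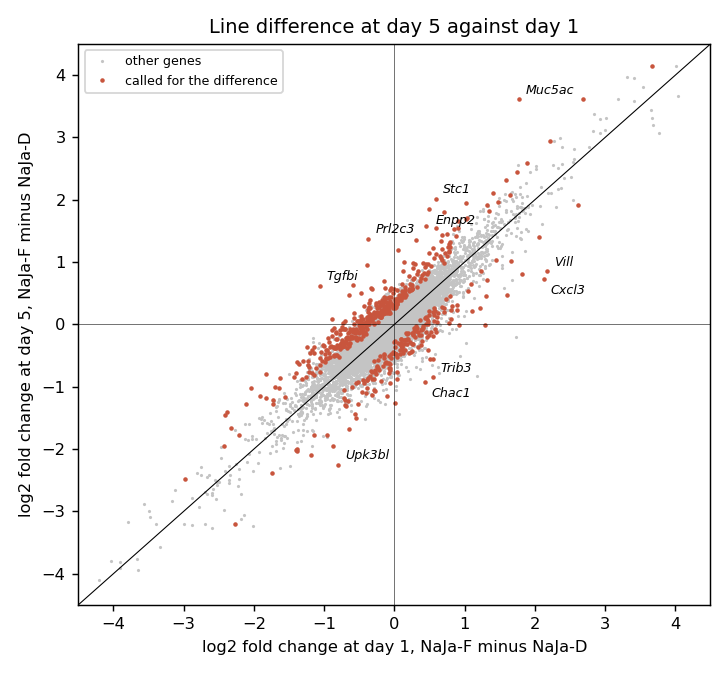
Log2 fold change of NaJa-F over NaJa-D at day 5 (y axis) against day 1 (x axis) for the 10276 genes that averaged at least 2 log2 CPM, with the 572 genes called for the difference in red, the diagonal of equal values, and 13 genes beyond the axes. The points lay along the diagonal, and Tgfbi and Prl2c3 crossed from negative at day 1 to positive at day 5.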

How the data were processed

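RNA was sequenced from 3 lines, and the authors deposited 1 table of raw counts per Ensembl gene for 34 libraries, of which 12 are compared here. The submitters' notes name Trimmomatic 0.39 and STAR 2.5.2b on GRCm38, while the counting tool, the annotation and the use of strand are not given in the sources used here. Gene symbols came from GENCODE M21 for 14064 of the 14107 genes. All 34 libraries were fitted in R 4.3.3 with limma 3.58.1 (voom weights, TMM scaling from edgeR 4.0.16) as 12 group means of line, treatment and day, and all tests were two-sided with Benjamini-Hochberg adjustment over all genes. Log2 fold changes are given with their SE. The script was tested on simulated data. Totals ranged from 46007050 to 69275686 counts, and replicates of a group differed by more than sampling noise, with chi-square per degree of freedom from 3.32 to 39.2.

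Members of the gene lists were named, together with the 15 highest and 15 lowest log2 fold changes and the 10 largest t statistics among called genes whose lines did not overlap and whose mean was 2 log2 CPM or more, the 5 highest and 5 lowest day differences, and genes below 0.1 CPM in every library of one line and above 5 CPM in the other. Some genes that this rule names are not reported here. The comparison, its lists and its tests were chosen with earlier results of these data known. Other scalings, edgeR, DESeq2 1.42.0, limma-trend, filters, thresholds, thinning, single days, a fit of the 12 DMSO libraries alone, a replicate block and leaving out each library were tried. Same-numbered libraries did not deviate together in every case (r from -0.447 to 0.284, over 0.1 in 10 of 18 pairs), so the numbers were not treated as pairs. Promoters were RefSeq sequences on GRCm38.p6.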

Additional observations from a re-analysis of the deposited data

Results flagged for a closer look

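The difference between NaJa-F and NaJa-D changed from day 1 to day 5 for the 10 genes below, by the limma test of that difference. Of these, 5 had a more positive difference at day 5. The change on the log2 scale was 1.85 ± 0.26 (SE) for Muc5ac (adjusted p = 3.7e-05), 1.75 ± 0.18 for Prl2c3 (adjusted p = 4.2e-07), 1.69 ± 0.15 for Tgfbi, 1.42 ± 0.16 for Stc1, a secreted regulator of calcium, and 1.36 ± 0.15 for Enpp2. Prl2c3 belongs to a family of near-identical genes, so its counts are uncertain. The other 5 had a more negative difference at day 5, with changes of -1.45 ± 0.14 for Upk3bl, a uroplakin relative, -1.40 ± 0.18 for Trib3, -1.40 ± 0.12 for Cxcl3, -1.36 ± 0.15 for Chac1 and -1.31 ± 0.28 for Vill, a relative of villin (adjusted p = 0.0027).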

How the results depend on the processing

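The count of genes called between the lines ranged from 8186 to 8634 when each library was left out in turn. The lowest was without NaJa-D DMSO day 1 replicate 3. The count that also differed by 1 or more on the log2 scale ranged from 1743 to 1817. For the day difference the range was 268 to 761, with 268 without NaJa-D DMSO day 1 replicate 3, 386 without NaJa-F DMSO day 5 replicate 2, 403 without NaJa-F DMSO day 5 replicate 1 and 410 without NaJa-F DMSO day 1 replicate 3. Each such fit has fewer samples. By construction the line contrast gave 1773 genes and the day difference 74 with the added condition of at least 1 on the log2 scale, and the day difference gave 1514 at an adjusted p below 0.05. DESeq2 called 955 genes for the day difference, with 1920 adjusted p-values missing, and the cause was not tested. With genes averaging at least 2 log2 CPM, 735 genes were called with at least 1 on the log2 scale among 10276 tested. Scaling by total counts called 8993 genes, of which 66.5% were higher in NaJa-F, against 52.9%, and moved the median of all genes to 0.143.

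For named genes, 5960 of 6047 pairs of gene and setting kept direction and call, and 6 reversed. With day 1 alone the log2 fold change was 0.55 for Trib3, 0.44 for Chac1 and -0.37 for Prl2c3, and with day 5 alone it was 0.089 for Met, -0.18 for Insig1 and 0.62 for Tgfbi. With a replicate block 8650 genes were called for the line contrast and 652 for the day difference. The same-numbered libraries share only a number.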

Other observations

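In 2 genes, noticed after their values were seen, single libraries of a group stood far from the others. Cyp24a1, which encodes the vitamin D 24-hydroxylase, was at 15 CPM in NaJa-D DMSO day 1 replicate 1 and 21 CPM in day 5 replicate 2, and at 0.0891 to 0.188 CPM in the other 4 NaJa-D libraries. The imprinted gene Peg3 was at 26.9 CPM in NaJa-F DMSO day 1 replicate 2 and 14.1 CPM in day 5 replicate 3, and at no more than 0.0343 CPM in the other 4 NaJa-F libraries. Neither was called between the lines (adjusted p = 0.064 for Cyp24a1 and 0.33 for Peg3, limma).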
